A study of Mus musculus with 27 samples.

Results

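The proteasome is the cell's main machine for degrading proteins tagged with ubiquitin. Its 20S core particle is a barrel of outer alpha rings and inner beta rings, and the beta rings carry the protease sites. The 19S regulatory particle caps the barrel: a base with a ring of ATPases unfolds the substrate and threads it into the core, and a lid removes the ubiquitin. Dedicated chaperones build the particle, and activators or an inhibitor can take the place of the 19S cap. In several mammalian cell types proteasome genes are known to be induced together when proteasome activity is insufficient, through the transcription factor Nfe2l1, and neurons depend on the proteasome for protein turnover at synapses.

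Proteasome subunit and assembly genes were taken from the count table as all symbols that start with Psma, Psmb, Psmc, Psmd, Psme, Psmf or Psmg and a digit, without the immune or thymus forms Psmb8, Psmb9, Psmb10 and Psmb11. This gave 46 of 22340 rows, matched by name and not by any measured value. The set was chosen with earlier results of these data known. All 46 passed the filter on low counts that left 18087 genes. They comprised 31 genes of 26S subunits, which were 7 of the alpha ring, 7 of the beta ring, 6 base ATPases, 3 other base subunits and 8 of the lid. There were 7 assembly chaperones and 6 activators or inhibitors. The alpha-type form Psma8 is testis specific, and Psmc3ip, a cofactor of meiotic recombination, matched by its name only and is not a proteasome part.

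The study sequenced ribosomal RNA-depleted total RNA from the cortex of wild-type C57BL6 mice aged 7 to 8 weeks. In the stroke model the middle cerebral artery was blocked with a filament for 35 min and then reopened. Ipsilateral cortex, from the operated hemisphere, was collected after 3, 6, 12 or 24 h of reperfusion, as was contralateral cortex from the other hemisphere. Sham mice had the surgery with no filament and their cortex served as a further reference, at a time and from a hemisphere that the labels do not give. Each of the 9 groups had 3 libraries, and replicates came from distinct days of surgery. The p-values measure the spread between such libraries, shared over the 9 groups and without pairing by day. All comparisons with sham cortex share the sham libraries, and both comparisons of ipsilateral cortex share its libraries. In tissue RNA, fewer cells of a type and less RNA per cell cannot be told apart.

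Libraries held 26505996 to 48830897 counts. Neuron marker genes (7 listed, 7 in the table) summed to 2467 to 2759 CPM in ipsilateral cortex at 24 h. Their sum was 3733 to 4030 CPM in contralateral cortex at 24 h and 3627 to 4104 CPM in sham cortex. Choroid plexus markers (5 listed, 5 in the table) summed to 10.3 to 711 CPM in ipsilateral cortex at 3 h. In contralateral cortex at 6 h they summed to 5.75 to 409 CPM, and in sham cortex to 6.95 to 13.2 CPM. Striatal neuron markers (6 listed, 6 in the table) summed to 111 to 331 CPM in ipsilateral cortex at 3 h and 145 to 241 CPM in sham cortex. The part of such differences between libraries in the results was not tested. CPM are counts relative to a library's total after TMM scaling, on edgeR's CPM scale. Contralateral replicate 1 at 3 h had the steepest GC trend of all libraries, and mitochondrial ribosomal RNA took 36.7% of its counts. Ipsilateral replicate 1 at 24 h had a share of 40.4%, against 27.7% and 28.0% in the other ipsilateral libraries at 24 h. Among 26S subunits, the log2 CPM of contralateral replicate 1 at 3 h differed from the mean of the other two by -1.09 to 0.60, with a Spearman rho of -0.75 against GC content over the 31 genes, which is a description.

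The proteasome genes moved little. Between ipsilateral and contralateral cortex 0, 0, 2 and 1 of 46 members passed an adjusted p of 0.05 at 3, 6, 12 and 24 h, all of them higher (edgeR quasi-likelihood test, Benjamini-Hochberg adjustment over 18087 genes). Of all genes tested, the shares called in either direction at these times were 0.249%, 7.99%, 12.2% and 19.1%, and the shares called higher were 7.94% at 12 h and 9.74% at 24 h. At an unadjusted p under 0.05, the numbers of members were 2, 3, 7 and 2, where 10.7%, 22.3%, 26.5% and 32.3% of all genes passed, and DESeq2 called 0, 0, 2 and 1 members at these times. The genes called were Psmd6 at 12 and 24 h and Psmd12 at 12 h, both subunits of the 19S lid.

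**Figure D1:**
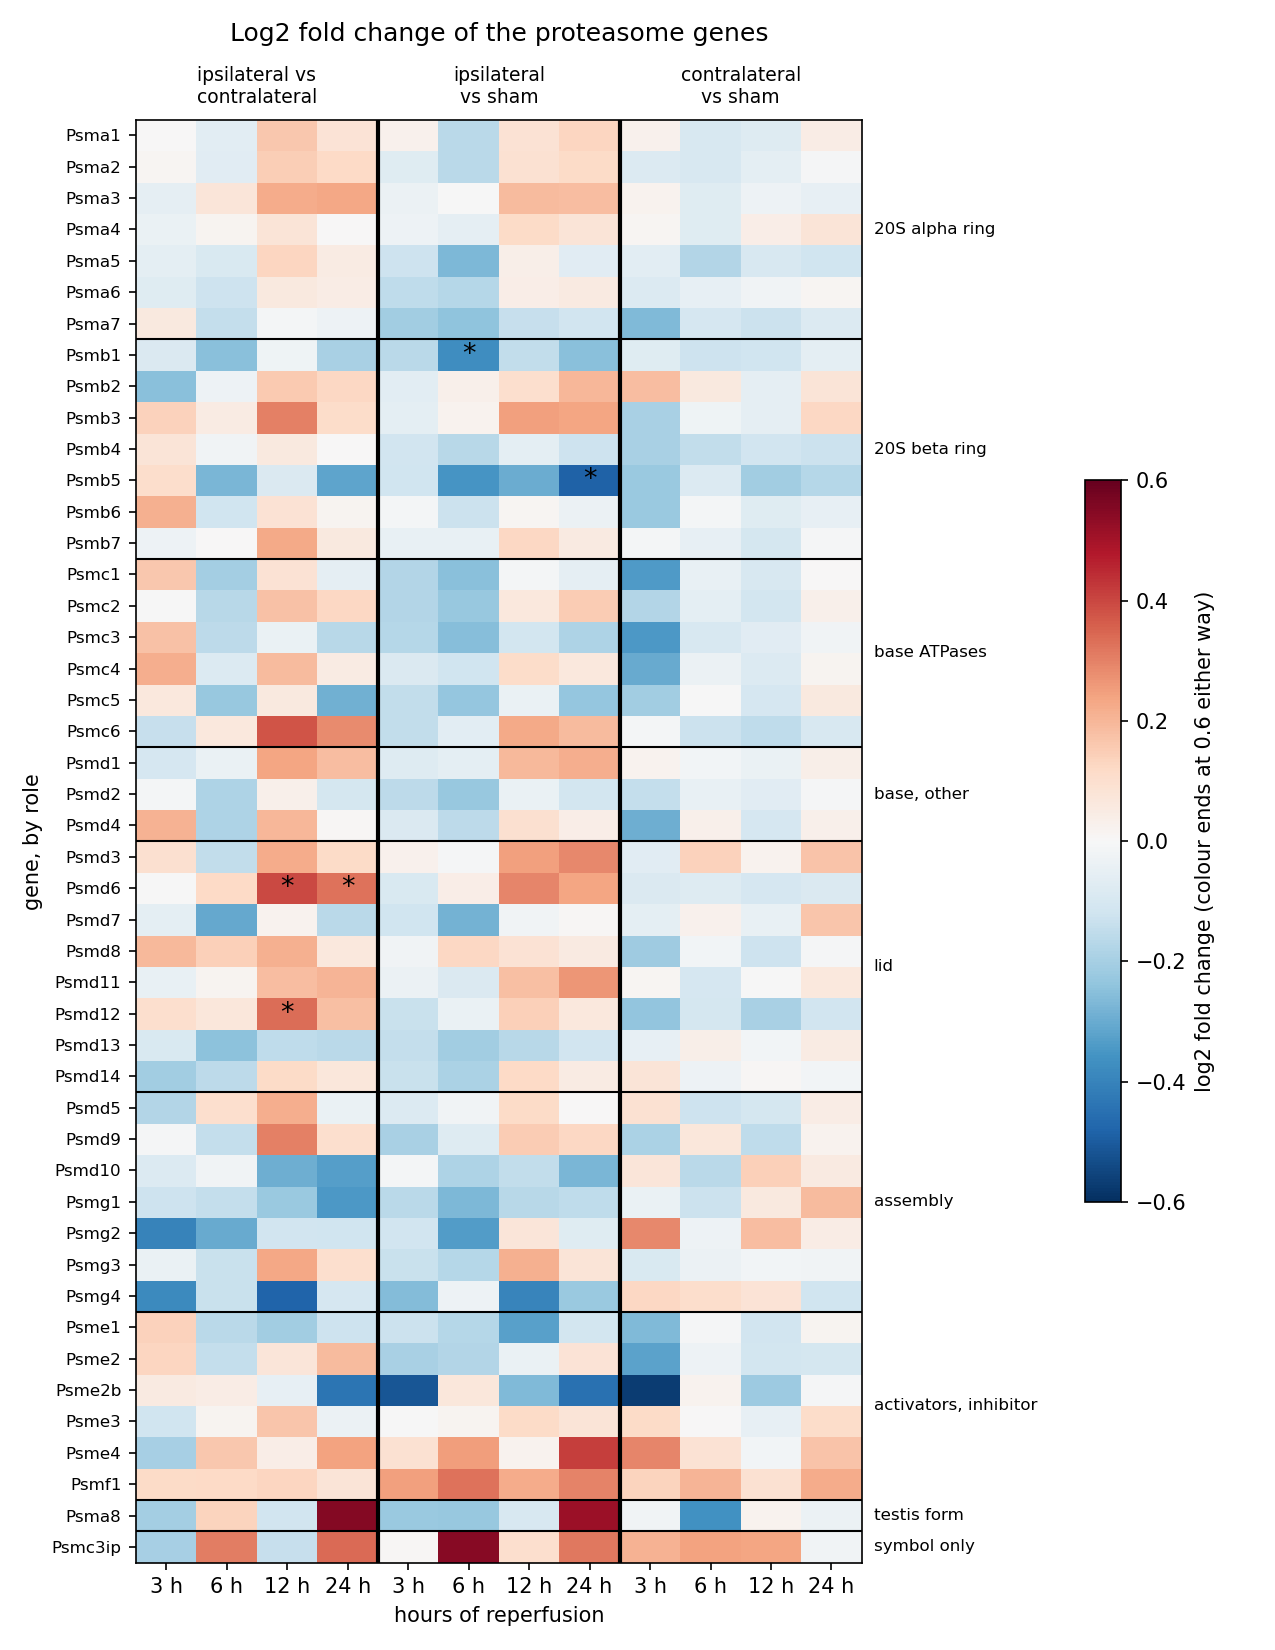
Log2 fold change of each of the 46 genes (rows, grouped by role) at 3, 6, 12 and 24 h (columns), in a block for ipsilateral over contralateral, a block for ipsilateral over sham and a block for contralateral over sham cortex. Red is higher and blue lower in the group named first, and a star marks an adjusted p under 0.05: Psmd6 and Psmd12 at 12 h and Psmd6 at 24 h against contralateral cortex, Psmb1 at 6 h and Psmb5 at 24 h against sham cortex.

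The intervals limit how large an undetected change could be. At 3 h and at 6 h, the 95% interval of the ipsilateral to contralateral difference lay within 1.5-fold either way for all 31 of the 31 genes of 26S subunits. At 12 h it did so for 29 of 31 (93.5%) and at 24 h for 28 of 31 (90.3%). All 31 lay within 2-fold at each of the 4 times. The intervals use a spread shared by all 9 groups. The contralateral group at 3 h includes replicate 1, whose log2 CPM differed from the mean of its other libraries by -1.09 to 0.60. Over the 31 subunits the log2 fold change at 3 h had a Spearman rho of 0.59 with GC content, which is a description. Over all genes tested, the share within 1.5-fold at 3, 6, 12 and 24 h was 50.5%, 43.2%, 40.3% and 37.5%. The 26S subunits also stood higher in level, with a median average log2 CPM of 5.55, against 3.28 over all genes tested. Among the 6604 genes at or above the subunit lowest in average level, Psmb5, the share was 85.9%, 77.2%, 68.6% and 62.6%, below that of the 26S subunits at each time.

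**Figure D2:**
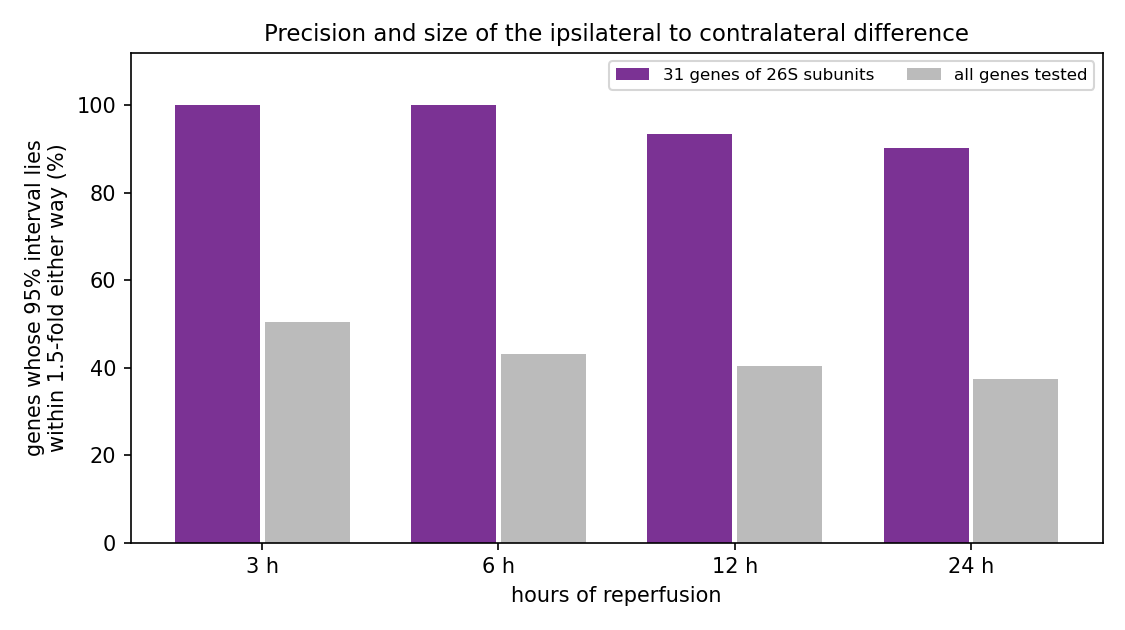
Share of genes, in percent, whose 95% interval of the ipsilateral to contralateral fold change lies within 1.5-fold either way, at each time of reperfusion, for the 31 genes of 26S subunits and for all 18087 genes tested. The 26S subunits stay at 90.3% or above while all genes decline to 37.5% at 24 h.

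No member had an estimate past 1.5-fold in either direction at any of the 4 times between ipsilateral and contralateral cortex. Of all genes tested 11.9%, 16.4%, 16.9% and 21.6% did so at 3, 6, 12 and 24 h, and of the 6604 genes at or above the level of Psmb5 1.12%, 4.10%, 6.30% and 7.21% did. The biological coefficient of variation, the spread between replicates beyond counting error, had a median of 0.113 over 26S subunits and 0.157 over all genes tested. It was under 0.157 for 31 of 31 subunits. The higher level of the subunits was not matched in this comparison of spread.

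The median log2 fold change of the 31 genes between ipsilateral and contralateral cortex at 3, 6, 12 and 24 h was -0.00, -0.09, 0.15 and 0.05, beside medians of 0.00, -0.02, -0.01 and 0.03 over all genes tested. Estimates were above 0 for 15, 9, 26 and 22 of the 31 subunits at these times. The median at 12 h was 0.09 without contralateral replicate 1, 0.09 without ipsilateral replicate 1 and 0.10 without ipsilateral replicate 2. That at 24 h was 0.12 without ipsilateral replicate 1, -0.00 without contralateral replicate 2, and 0.00 without ipsilateral replicate 2 or without ipsilateral replicate 3. Libraries of the groups did not overlap, with ipsilateral lower, for 12 of 46 members at 6 h, where 15.9% of all genes tested behaved so, and with ipsilateral higher for 6 of 46 at 12 h, where 16.9% did. A test of whether the ipsilateral to contralateral difference itself varied between the 4 times called 0 of 46 members in edgeR, 0 of them at an unadjusted p under 0.05 and 0 in DESeq2. Of all genes 1.34% were called and 16.6% had an unadjusted p under 0.05. The smallest adjusted p of a member in that test was 0.344.

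Summed over the 31 genes, the level in ipsilateral cortex was 1580 to 1661 CPM at 3 h and 1542 to 1590 CPM at 6 h. At 12 h the ipsilateral libraries stood at 1903, 1902 and 1606 CPM, against 1520, 1744 and 1681 CPM in contralateral cortex, so the groups overlapped through ipsilateral replicate 3. At 24 h they stood at 1570, 1833 and 1885 CPM, against 1682 to 1762 CPM in contralateral cortex, and ipsilateral replicate 1 was the low one. Sham libraries spread over 1603 to 1885 CPM. These low ipsilateral libraries were also those with the highest share of mitochondrial ribosomal RNA in their groups, 33.9% for replicate 3 at 12 h and 40.4% for replicate 1 at 24 h. Contralateral replicate 1 at 12 h, with the lowest sum of its group, likewise had the highest share there, 33.3%. The same held in sham cortex and in ipsilateral cortex at 3 and 6 h, but not in contralateral cortex at 3, 6 or 24 h. At 3 h, contralateral replicate 3 had the lowest sum, 1548 CPM, with the lowest share of its group, 24.4%. The part of the mitochondrial share in the result was not tested.

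**Figure D3:**
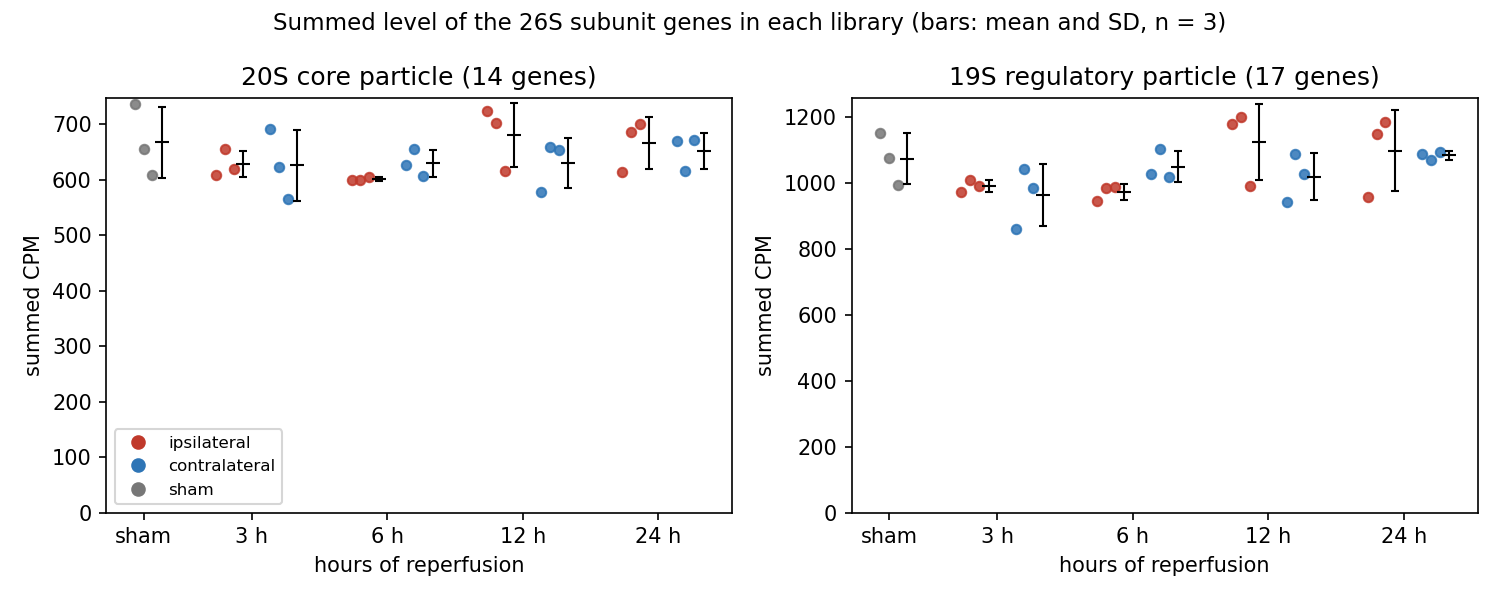
Summed CPM of the 14 genes of the 20S core particle (left) and the 17 genes of the 19S regulatory particle (right) in each library, for sham cortex and for ipsilateral and contralateral cortex at 3, 6, 12 and 24 h of reperfusion; bars give mean and SD (n = 3). Ipsilateral libraries are tightly grouped at 6 h and spread at 12 and 24 h, where 1 library of 3 lies low.

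By role, all median shifts at 12 h were small. The median log2 fold change between ipsilateral and contralateral cortex was 0.13 for the alpha ring, 0.09 for the beta ring, 0.13 for the base ATPases, 0.20 for the other base subunits and 0.20 for the lid. For the assembly chaperones it was -0.11 and for the activators and inhibitor 0.06. At 24 h these medians were 0.05, 0.01, -0.00, 0.01 and 0.09 for the subunit classes, -0.10 for the chaperones and 0.02 for the activators and inhibitor.

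Psmd6 (chromosome 14, 14112174 to 14120984 on the minus strand, mm10), a scaffold subunit of the lid, had the smallest p of all members at 12 h. Its level was 62.6, 56.4 and 51.3 CPM in ipsilateral cortex at 12 h, against 41.9, 44.3 and 43.0 CPM in contralateral cortex. The groups did not overlap. The log2 fold change was 0.40 ± 0.11 (SE), which is 1.32-fold with a 95% interval of 1.12 to 1.55 (adjusted p = 0.0201, edgeR). At 24 h it measured 46.7, 56.3 and 60.5 CPM in ipsilateral cortex, against 41.9, 42.2 and 46.6 CPM in contralateral cortex, with the lowest ipsilateral library only just above the highest contralateral one. The log2 fold change there was 0.32 ± 0.11 (SE; adjusted p = 0.0437, edgeR). Against the sham libraries, at 48.9, 47.1 and 42.8 CPM, the log2 fold change at 12 h was 0.30 and missed the threshold (adjusted p = 0.0951, edgeR).

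Psmd12 (chromosome 11, 107479484 to 107504362 on the plus strand), another structural subunit of the lid, had 42.4, 36.5 and 31.6 CPM in ipsilateral cortex at 12 h, against 26.1, 32.1 and 29.4 CPM in contralateral cortex. The lowest ipsilateral library lay below the highest contralateral one, so the groups overlapped. The log2 fold change was 0.34 ± 0.11 (SE; adjusted p = 0.0455, edgeR). In sham cortex Psmd12 had 36.5, 32.5 and 31.2 CPM, which overlapped the ipsilateral libraries at 12 h. It was not called against sham cortex. Both calls at 12 h against contralateral cortex rested on single libraries. The call of Psmd6 at 12 h was lost without contralateral replicate 1 (adjusted p = 0.0831, edgeR), contralateral replicate 3 (0.0602) or ipsilateral replicate 1 (0.135), and that of Psmd12 without contralateral replicate 1 (0.23), contralateral replicate 3 (0.102), ipsilateral replicate 1 (0.317) or ipsilateral replicate 2 (0.0749). At 24 h, Psmd6 lost its call without contralateral replicate 1 (adjusted p = 0.153, edgeR), contralateral replicate 2 (0.138), ipsilateral replicate 2 (0.119) or ipsilateral replicate 3 (0.197). Leaving out any 1 replicate from all 9 groups ended both calls at 12 h (adjusted p, edgeR: Psmd6 0.0516 to 0.178, Psmd12 0.093 to 0.47). The call of Psmd6 at 24 h ended so without replicate 2 (0.393) or replicate 3 (0.171). The call of Psmd12 was also lost with a replicate block within each time (adjusted p = 0.0733, edgeR), with no filter (0.0708), with abundant RNAs left out (0.051) and with only the groups compared (0.0707). For Psmd6 at 24 h the last 3 of these settings ended the call too (0.0685, 0.0575 and 0.101), while the direction was the same in each of these fits.

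**Figure D4:**
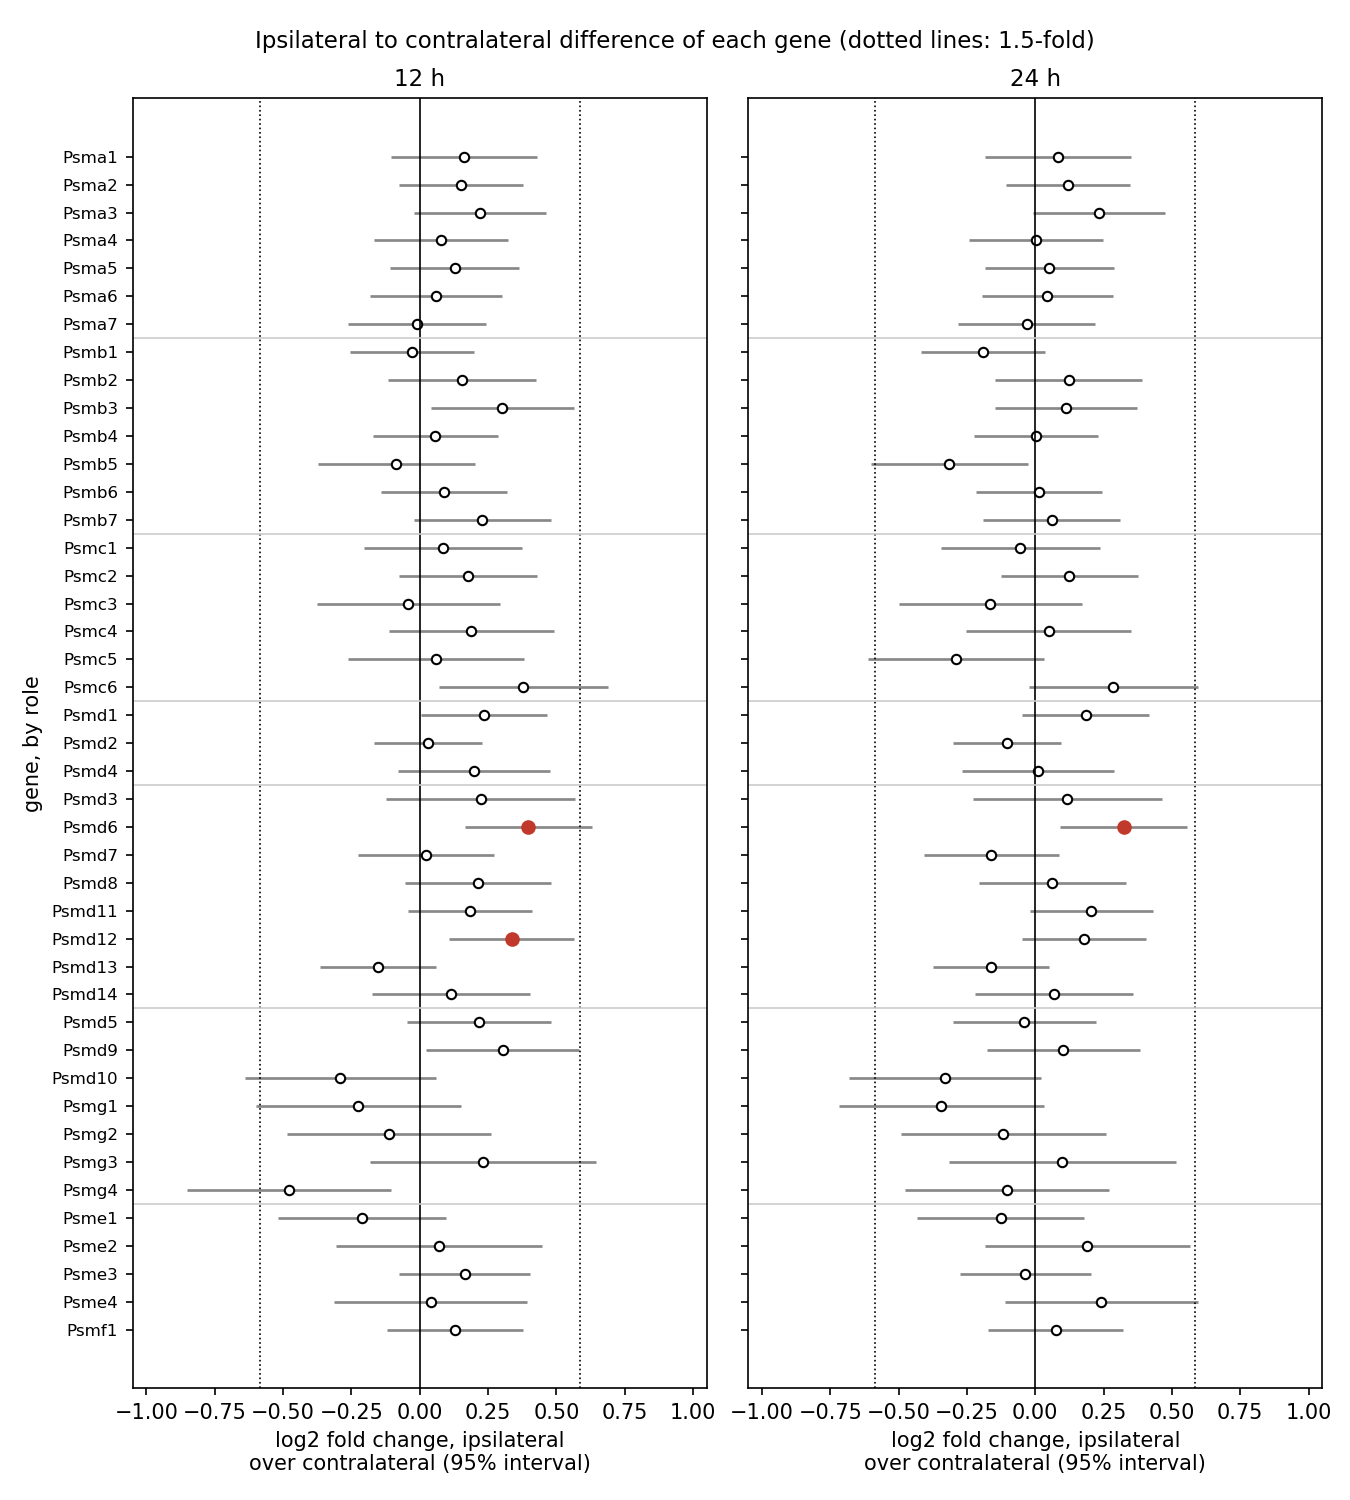
Log2 fold change of ipsilateral over contralateral cortex with its 95% interval for 43 genes (rows, by role) at 12 h (left) and 24 h (right); filled red points passed an adjusted p of 0.05 and dotted lines mark 1.5-fold. Psma8, Psme2b and Psmc3ip, under a mean count of 100, are left out. All 43 estimates lie between the dotted lines.

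The promoters of the lid genes called higher than in contralateral cortex, and of Psmb5, described next, are shown. The antioxidant response element is the site through which Nfe2l1 and Nfe2l2 act on proteasome genes. Capitals mark matches to TGACNNNGC on either strand, and each sequence runs 5′ to 3′ on the gene's strand over 250 bases before and 50 after the start (RefSeq, GRCm38.p6).
Psmd6, chr14:14120896-14121195, minus strand: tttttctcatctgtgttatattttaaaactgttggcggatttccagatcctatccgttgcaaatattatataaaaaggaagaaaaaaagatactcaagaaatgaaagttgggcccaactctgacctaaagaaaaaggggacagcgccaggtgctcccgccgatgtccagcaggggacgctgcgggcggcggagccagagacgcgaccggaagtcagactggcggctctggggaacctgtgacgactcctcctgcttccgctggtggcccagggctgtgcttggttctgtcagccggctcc
Psmd12, chr11:107479278-107479577, plus strand: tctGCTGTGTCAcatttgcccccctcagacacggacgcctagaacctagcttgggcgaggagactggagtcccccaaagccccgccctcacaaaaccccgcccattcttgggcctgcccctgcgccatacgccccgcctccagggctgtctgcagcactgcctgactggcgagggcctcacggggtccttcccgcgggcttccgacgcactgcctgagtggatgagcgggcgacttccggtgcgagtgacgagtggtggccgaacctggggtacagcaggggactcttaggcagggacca
Psmb5, chr14:54617946-54618245, minus strand: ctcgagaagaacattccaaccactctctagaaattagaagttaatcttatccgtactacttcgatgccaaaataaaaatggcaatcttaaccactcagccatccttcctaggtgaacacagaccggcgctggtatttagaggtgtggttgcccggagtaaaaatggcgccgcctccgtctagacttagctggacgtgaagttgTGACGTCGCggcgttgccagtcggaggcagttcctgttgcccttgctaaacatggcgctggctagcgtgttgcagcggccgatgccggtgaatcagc
The core motif lay at position -47 from the start in Psmb5 and at -247 in Psmd12, and these letters were not in the window of Psmd6. Of 38 members with a promoter in the table, 6 held it (15.8%): Psmb5, Psmb6, Psmc6, Psmd9, Psmd12 and Psme4. Among all 27025 genes with a promoter in the table the share was 13.99%, so the members stood near it. The CCAAT box, searched as CCAAT on both strands, was in 34.2% of the members and 41.1% of all genes. Psmb1 was among the members without an entry. A match is a description of letters and not of a bound site.

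Of the beta ring, which carries the protease sites, Psmb5 and Psmb1 were called lower against sham cortex, at 24 h and at 6 h. Psmb5 (chromosome 14, 54614119 to 54618022 on the minus strand) encodes the subunit with chymotrypsin-like activity. Its level was 16.9, 17.1 and 14.9 CPM in ipsilateral cortex at 24 h, 20.2, 20.7 and 19.9 CPM in contralateral cortex and 23.2, 23.1 and 22.1 CPM in sham cortex. Ipsilateral cortex was below both references in every library. Against sham cortex the log2 fold change was -0.49 ± 0.14 (SE; adjusted p = 0.014, edgeR), and against contralateral cortex it was -0.31 ± 0.14 and missed the threshold (adjusted p = 0.117, edgeR). The call against sham cortex was lost without ipsilateral replicate 3 (adjusted p = 0.0701, edgeR). It was also lost without replicate 2 of all 9 groups (0.126) or replicate 3 of all 9 groups (0.153). Psmb5 was also the 26S subunit with the highest GC content, 57.0%. Over the 31 subunits the log2 fold change against sham cortex at 24 h had a Spearman rho of -0.33 with GC content. That against contralateral cortex at 24 h had a rho of -0.52, and both are given as a description. With a correction for GC content Psmb5 remained called against sham cortex, and the part of GC content in its level was not tested.

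Psmb1 (chromosome 17, 15475021 to 15499751 on the minus strand), a structural subunit of the beta ring, was lower in ipsilateral cortex at 6 h. It had 54.0, 48.9 and 54.2 CPM there, 62.4, 65.6 and 58.9 CPM in contralateral cortex and 77.3, 65.9 and 60.4 CPM in sham cortex. The ipsilateral libraries lay below all others of these groups. Against sham cortex the log2 fold change was -0.37 ± 0.11 (SE; adjusted p = 0.0404, edgeR), and against contralateral cortex -0.25 (adjusted p = 0.174, edgeR). The call was lost without sham replicate 1 (adjusted p = 0.246, edgeR), sham replicate 2 (0.0836), ipsilateral replicate 1 (0.0845), ipsilateral replicate 2 (0.198) or ipsilateral replicate 3 (0.0551), and also with no filter (0.052). Psmb3, a beta subunit with no protease site, had 44.3, 42.5 and 38.5 CPM in ipsilateral cortex at 12 h, against 30.0, 36.1 and 35.5 CPM in contralateral cortex, and did not pass the test (log2 fold change 0.30, adjusted p = 0.122, edgeR).

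Other members that the naming rule picked at 12 h did not pass the test. Psmc6, an ATPase of the base, had 62.3, 58.0 and 44.9 CPM in ipsilateral cortex, against 38.1, 45.4 and 43.5 CPM in contralateral cortex. Its groups overlapped and the log2 fold change was 0.38 (adjusted p = 0.101, edgeR). Psmd1, a scaffold of the base that docks ubiquitin-processing factors, had 125, 108 and 95.3 CPM in ipsilateral cortex, against 87.8, 94.7 and 96.4 CPM in contralateral cortex (log2 fold change 0.23, adjusted p = 0.182, edgeR). Psma3 of the alpha ring had 76.5, 68.1 and 63.1 CPM in ipsilateral cortex, against 54.8, 62.7 and 60.7 CPM in contralateral cortex. The groups were just separate, and the log2 fold change was 0.22 (adjusted p = 0.237, edgeR). Ipsilateral replicate 3 was the lowest of its group for Psmc6, Psmd1, Psma3, Psmb3, Psmd6 and Psmd12 alike.

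Of the 7 assembly chaperones, 4 had estimates below 0 at 12 h and none was called. Psmg4, which with its partners builds the alpha ring, had 2.14, 2.01 and 2.03 CPM in ipsilateral cortex at 12 h, against 3.09, 2.59 and 2.95 CPM in contralateral cortex. The groups did not overlap, yet the log2 fold change of -0.48 missed the threshold (adjusted p = 0.0849, edgeR; interval -0.85 to -0.10). Psmd10, also known as gankyrin, a chaperone of the base, had 6.43, 6.28 and 4.85 CPM in ipsilateral cortex and 6.10, 7.46 and 7.93 CPM in contralateral cortex at 12 h, with overlap. Psmg1, a chaperone of the alpha ring, had 4.79, 5.67 and 6.61 CPM in ipsilateral cortex and 6.30, 6.83 and 6.79 CPM in contralateral cortex. Their log2 fold changes were -0.29 for Psmd10 (adjusted p = 0.294, edgeR) and -0.22 for Psmg1 (adjusted p = 0.488, edgeR). Psmg2, the partner of Psmg1, had an estimate of -0.11. Estimates were above 0 for Psmg3 (0.23) and for the base chaperones Psmd5 (0.22) and Psmd9 (0.30), with adjusted p-values of 0.52, 0.298 and 0.151 (edgeR).

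Activators gave no call. Psme3, the nuclear activator PA28 gamma, had 61.3, 70.6 and 57.6 CPM in ipsilateral cortex at 12 h, against 52.0, 60.0 and 57.0 CPM in contralateral cortex, with overlap (log2 fold change 0.16, adjusted p = 0.407, edgeR). Psme1 and Psme2 encode the interferon-inducible activator PA28. Their log2 fold changes between ipsilateral and contralateral cortex at 24 h were -0.13 and 0.19. Psmf1, the inhibitor PI31, had 26.6, 25.6 and 24.8 CPM in ipsilateral cortex at 6 h, 23.9, 23.4 and 23.5 CPM in contralateral cortex and 20.8, 19.3 and 21.4 CPM in sham cortex. These 3 groups did not overlap, and the log2 fold change of ipsilateral against sham cortex was 0.33 (adjusted p = 0.109, edgeR). Psma8 had 0.0809, 0.0491 and 0.508 CPM in ipsilateral cortex at 12 h, against 0.167, 0.139 and 0.39 CPM in contralateral cortex. Psmc3ip had 1.33, 1.25 and 1.59 CPM in ipsilateral cortex, against 2.12, 1.18 and 1.31 CPM in contralateral cortex. Both genes overlapped between the groups and neither passed.

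The comparisons with sham cortex gave as few calls. Ipsilateral against sham cortex called 0, 1, 0 and 1 of 46 members at 3, 6, 12 and 24 h, beside 0.243%, 6.11%, 10.3% and 22.2% of all genes (edgeR). The genes were Psmb1 at 6 h and Psmb5 at 24 h, both lower, and 1.09% and 10.9% of all genes were called lower at these times. At an unadjusted p under 0.05 the numbers were 0, 7, 4 and 6, where 8.58%, 20.7%, 24.9% and 35.2% of all genes passed, and DESeq2 called 0, 1, 0 and 1. At 24 h no member was called higher, but 6 were when the libraries described above as apart, ipsilateral replicate 1 at 24 h and contralateral replicate 1 at 3 h, were left out: Psmb3, Psmc2, Psmd3, Psmd6, Psme4 and Psmf1. The share of all genes called higher in that fit is not given here, so these 6 are not set against it. Contralateral against sham cortex called 0 of 46 members at each time in edgeR and 0 in DESeq2, beside 0.0111%, 0.0332%, 0.238% and 0.111% of all genes, with 6, 0, 0 and 0 members at an unadjusted p under 0.05, where 8.64%, 4.3%, 7.45% and 6.47% of all genes passed. The ipsilateral to contralateral difference at 24 h minus that at 3 h called 0 of 46 members in edgeR and in DESeq2 (3.32% of all genes), with 1 at an unadjusted p under 0.05 (20.8% of all genes).

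Levels between the genes were set side by side in sham cortex as CPM per kilobase of annotated exon. Highest were Psmb4 of the beta ring at 71.5 ± 5.5, Psmd2, a scaffold of the base, at 63.7 ± 3.7, and Psmb6, the caspase-like subunit, at 59.1 ± 8.2 (SD, n = 3 each). The median per class was 32.2 for the alpha ring, 45.9 for the beta ring, 45.0 for the ATPases, 35.6 for the other base subunits and 20.01 for the lid. Assembly chaperones, which are not part of the finished particle, had a median of 5.52 and all lay under the lowest 26S subunit, Psmd11 at 11.8. Of the 45 neighbouring pairs in this order, 39 overlapped in their sham libraries. These levels depend on which transcripts are counted in the length: for 23 of 46 members they change by over 1.5 times when all annotated transcripts are used. For 13 members an exon overlaps another gene, such as Slc39a13 for Psmc3, Nek6 for Psmb7 and Sirt3 for Psmd13, each on the opposite strand. For Psma4, Psma5, Psmb5, Psmd3, Psmd9 and Psmg3 the overlapping gene had no row in the count table. Psme2b overlaps 9930111J21Rik1 on the same strand and is a near copy of Psme2. Where reads could not be assigned, counts of such members are uncertain.

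Across the 27 libraries, log2 CPM of 26S subunits had a median Pearson r of 0.41 over 465 pairs, and 80.2% of pairs were above 0. Without contralateral replicate 1 at 3 h the median was 0.52. All pairs share the same libraries and depths, so this is a description. The genes outside the family whose profile was most like the mean of the 26S subunits were Nars (r = 0.82), Rtcb (0.81), Hars (0.80), Pdcd2l (0.80) and Mrpl32 (0.79), over 27 libraries. Without contralateral replicate 1 at 3 h the order was Hars (0.86), Nars (0.81) and Rtcb (0.81), while Pdcd2l stood at rank 9 and Mrpl32 at rank 13.

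Genes that work with the proteasome but lie outside the family were counted from a list. Of 31 such genes, 29 were tested, and between ipsilateral and contralateral cortex 0, 1, 4 and 8 were called at 3, 6, 12 and 24 h (edgeR), beside the all-gene shares of 0.249%, 7.99%, 12.2% and 19.1%. The call at 6 h was Ddi2 (log2 fold change 0.38, adjusted p = 0.0449, edgeR). It was lost with a replicate block within each time (0.0646), with no filter (0.0588) and without any library of the groups but ipsilateral replicate 3 (0.0919 to 0.265). The 4 genes called at 12 h were all higher (Zfand2a, Ubqln1, Ddi2 and Txnl1). At 24 h 4 were higher (Psmb8, Zfand2a, Nfe2l2 and Ddi2) and 4 lower. Zfand2a, a stress-induced factor that binds the proteasome, had 117, 82.2 and 83.7 CPM in ipsilateral cortex at 12 h, against 43.8, 47.2 and 49.1 CPM in contralateral cortex (log2 fold change 1.01, adjusted p = 0.000644, edgeR). The shuttle Ubqln1 had 259, 216 and 189 CPM in ipsilateral cortex at 12 h, against 115, 129 and 138 CPM in contralateral cortex (log2 fold change 0.80, adjusted p = 3.64e-05, edgeR). The groups of both genes did not overlap, and their calls at 12 h held without any 1 library. The call of Txnl1, a thioredoxin-like protein bound to the 19S particle, was lost without contralateral replicate 1 (adjusted p = 0.192, edgeR), contralateral replicate 2 (0.0791), contralateral replicate 3 (0.0871) or ipsilateral replicate 1 (0.299), with a replicate block within each time (0.0625), with no filter (0.0575) and with abundant RNAs left out (0.053).

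Among regulators of proteasome genes, Nfe2l1 itself did not pass at any time, with log2 fold changes between ipsilateral and contralateral cortex of -0.05, -0.20, 0.14 and -0.09 at 3, 6, 12 and 24 h. Ddi2, the protease that activates Nfe2l1, had 84.8, 69.2 and 70.4 CPM in ipsilateral cortex at 12 h, against 48.7, 54.3 and 55.2 CPM in contralateral cortex. Its log2 fold change was 0.50 (adjusted p = 0.00555, edgeR), and the call was lost without ipsilateral replicate 1 (0.0654). At 24 h Ddi2 lost its call without contralateral replicate 2 (adjusted p = 0.0594, edgeR), ipsilateral replicate 2 (0.0741) or ipsilateral replicate 3 (0.0712), and with only the groups compared (0.0562). Zfand2a lost its call at 24 h without contralateral replicate 1 (adjusted p = 0.0658, edgeR), contralateral replicate 2 (0.0544) or ipsilateral replicate 3 (0.131), and with only the groups compared (0.148). Nfe2l2, the oxidative stress factor, had 13.2, 10.3 and 9.45 CPM in ipsilateral cortex at 24 h, against 6.45, 4.54 and 6.71 CPM in contralateral cortex (log2 fold change 0.89, adjusted p = 0.00115, edgeR). Its call was lost without replicate 2 of all 9 groups (adjusted p = 0.0569, edgeR). Lower at 24 h were the deubiquitinase Uchl5 (-0.49), the ubiquitin-activating enzyme Uba1 (-0.30) and the shuttles Ubqln2 (-0.46) and Ubqln4 (-0.32). Among them only the call of Ubqln2 held without any 1 library, and it was lost without replicate 2 of all 9 groups (adjusted p = 0.0868, edgeR). That of Uba1 was lost without contralateral replicate 3 (adjusted p = 0.0529, edgeR) and that of Uchl5 without contralateral replicate 1 (0.0943), contralateral replicate 2 (0.0537), ipsilateral replicate 1 (0.0933) or ipsilateral replicate 2 (0.0678). That of Ubqln4 was lost without each library of the 2 groups but ipsilateral replicate 2, with adjusted p-values (edgeR) of 0.0819 to 0.155, with no filter (0.0534), with a filter of 1 CPM in 3 libraries (0.0593) and with only the groups compared (0.0585). The call of Uchl5 was also lost without the 2 libraries that stand apart (adjusted p = 0.0628, edgeR). Of the 7 neuron markers 4 were called lower at 24 h, with the sums given above, and their part in these differences was not tested.

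Pomp, which matures the 20S core, was lower than in sham cortex at 6, 12 and 24 h. It had 27.7, 27.5 and 25.9 CPM in ipsilateral cortex at 24 h, 38.7, 31.8 and 29.7 CPM in contralateral cortex and 42.3, 38.3 and 32.9 CPM in sham cortex. The log2 fold changes against sham cortex were -0.45, -0.38 and -0.49 at 6, 12 and 24 h (adjusted p = 0.0205, 0.0377 and 0.00415, edgeR). The call at 24 h held without any 1 library, but was lost without replicate 2 of all 9 groups (adjusted p = 0.0813, edgeR). At 6 h it was lost without sham replicate 1 (adjusted p = 0.135, edgeR), sham replicate 2 (0.0729), ipsilateral replicate 1 (0.109) or ipsilateral replicate 2 (0.0559), and at 12 h without sham replicate 1 (0.197), sham replicate 2 (0.102), ipsilateral replicate 1 (0.116) or ipsilateral replicate 3 (0.139). Against contralateral cortex Pomp was not called at any time.

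Psmb8, an immune form of the beta ring, rose at 24 h, while Psmb5, the subunit it can replace, was lower than in sham cortex. Its level was 2.47, 2.07 and 1.22 CPM in ipsilateral cortex at 24 h, 0.743, 1.10 and 0.604 CPM in contralateral cortex and 0.648, 0.819 and 0.467 CPM in sham cortex. The log2 fold change was 1.23 ± 0.36 against contralateral cortex (SE; adjusted p = 0.0165, edgeR) and 1.55 ± 0.37 against sham cortex (adjusted p = 0.00326, edgeR). The call against contralateral cortex was lost without contralateral replicate 1 (adjusted p = 0.0675, edgeR), contralateral replicate 3 (0.0748) or ipsilateral replicate 1 (0.088). At 12 h Psmb8 had 1.44, 1.45 and 1.48 CPM in ipsilateral cortex, against 1.09, 1.09 and 0.640 CPM in contralateral cortex. It was called higher there against sham cortex only. That call was lost with any 1 library of these groups left out (adjusted p = 0.058 to 0.162, edgeR). Contralateral replicate 3 at 3 h stood at 1.32 CPM, above ipsilateral replicate 3 at 24 h. Counts of Psmb8 were 14 to 90 per library. Per kilobase of exon, Psmb8 stood at 4.52% to 8.09% of the level of Psmb5 in ipsilateral cortex at 24 h, at 1.68% to 2.94% in contralateral cortex and at 1.17% to 1.95% in sham cortex. Psmb10, the immune partner of Psmb7, gave no call, with a log2 fold change of -0.14 at 24 h. Microglia and macrophage markers (7 of 7 in the table) summed to 97.7 to 179 CPM in ipsilateral cortex at 24 h and 80.4 to 150 CPM in contralateral cortex. Of these 7, 2 were called higher and 2 lower between these groups (edgeR). Neutrophil markers (5 of 6 in the table) summed to 1.96 to 13.2 CPM and 0.892 to 2.07 CPM in the same groups, and 1 was called higher. Their part in the rise of Psmb8 was not tested.

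**Figure D5:**
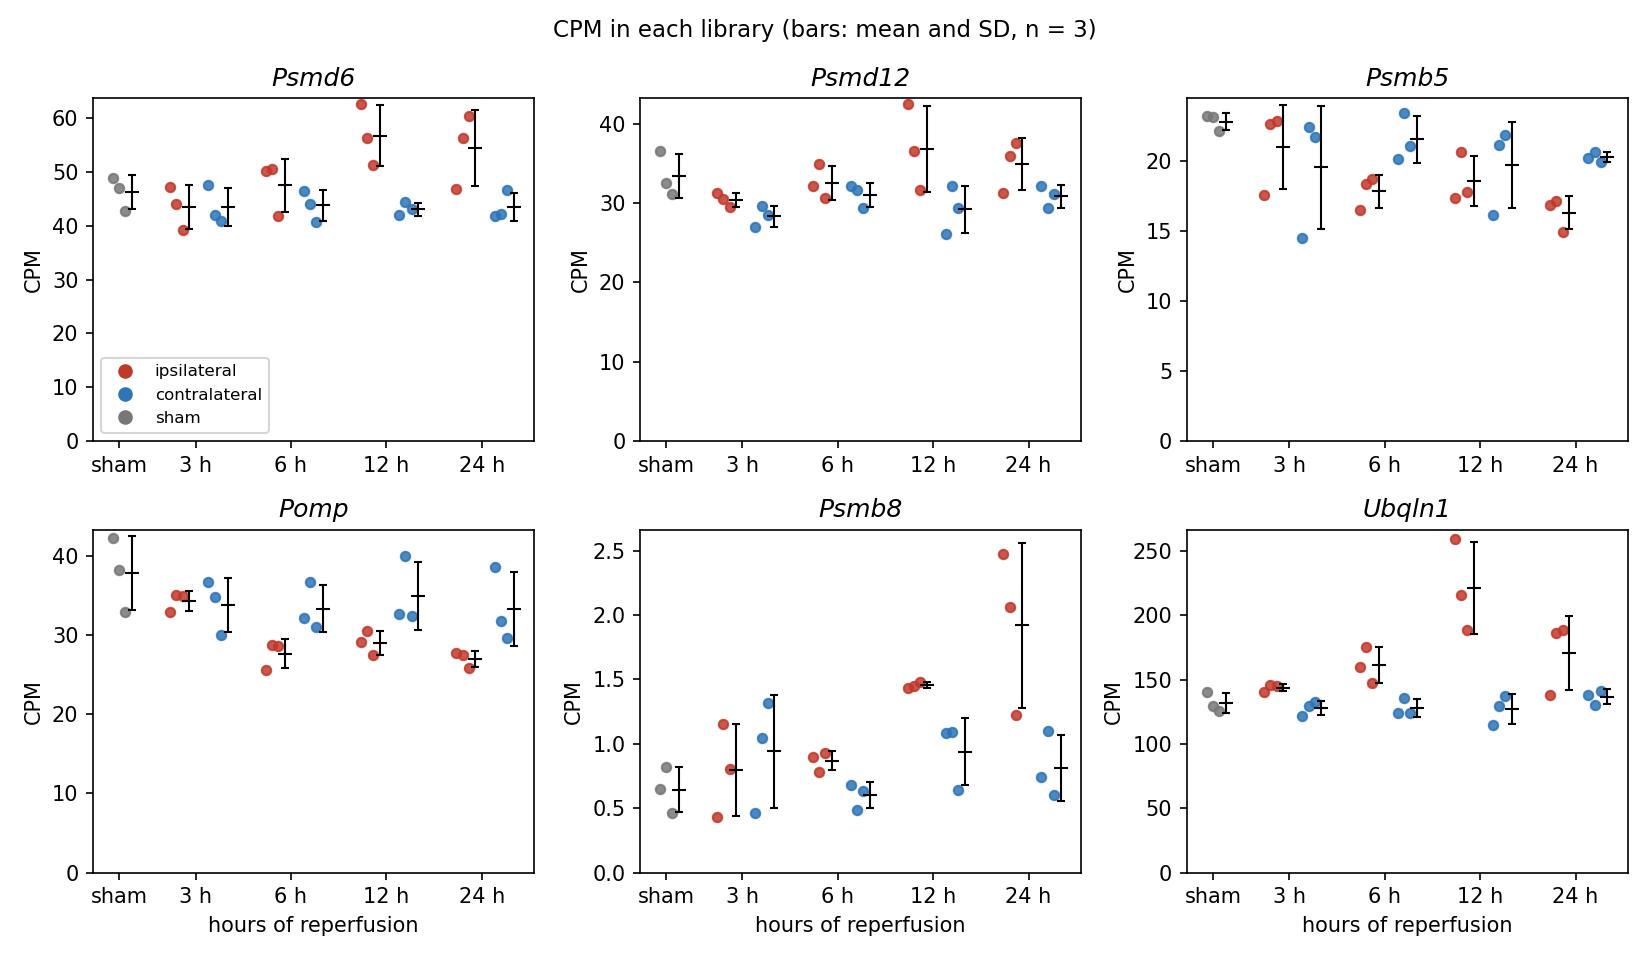
CPM in each library for Psmd6, Psmd12, Psmb5, Pomp, Psmb8 and Ubqln1 in sham cortex and in ipsilateral and contralateral cortex at 3, 6, 12 and 24 h of reperfusion; bars give mean and SD (n = 3). Psmd6 reaches 62.6 CPM and Ubqln1 259 CPM in ipsilateral cortex at 12 h, while Psmb5 and Pomp lie low in ipsilateral cortex at 24 h and Psmb8 reaches 2.47 CPM.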

How the data were processed

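The authors deposited raw counts of reads per gene for 27 libraries. The submitters' processing notes name STAR 2.5.0a, featureCounts 1.4.3-p1, edgeR with no version, and build mm10. Strand setting and annotation: not given in the sources used here. From the deposited counts, rows were kept by filterByExpr (at least 10 counts, 15 in total), scaled by TMM and fitted in 1 edgeR 4.0.16 quasi-likelihood model (R 4.3.3) of 9 groups, with 18 residual degrees of freedom and Benjamini-Hochberg adjustment over 18087 genes at a threshold of 0.05. The rows left out held 0.0116% of the counts. Intervals of 95% use the model's SE and total degrees of freedom. The test was tested on simulated data. Exon lengths, GC content and coordinates come from GENCODE M21, which matched 22164 of 22340 symbols, 696 of them through a synonym, and promoters from RefSeq.

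The members, their classes and the lists were chosen with earlier results of these data known. Of the partner genes listed, 1 was left out of all counts and is not reported here, and Psmb9 and Paaf1 were not tested. Values in every library are given, at the time with most calls between ipsilateral and contralateral cortex, for the member of each class with the smallest p and for the 3 largest and 3 smallest log2 fold changes, and for called members. Psmf1, Psmb8, Pomp and the other partner genes with values were picked after their values were seen. Replicate numbers mark the day of surgery, per the series' design text, and so pair the samples. The main fit held no term for this pairing, which enters only the alternatives with a replicate block. The mean correlation of deviations from group means was 0.0475 between libraries of the same number in different groups and -0.0237 between those of other numbers. Between ipsilateral and contralateral libraries of the same number it was 0.125, 0.0451, 0.0430 and 0.142 at 3, 6, 12 and 24 h. Alternatives were DESeq2 1.42.0 and its size factors, other filters, abundant RNAs left out, other sets of libraries, a replicate block, and a GC correction.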

Additional observations from a re-analysis of the deposited data

How the results depend on the processing

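No call turned its direction. With a replicate left out, the median log2 fold change of 26S subunits between ipsilateral and contralateral cortex ranged widely beside its size (-0.00 to 0.03 at 3 h, -0.15 to -0.07 at 6 h, 0.06 to 0.23 at 12 h and -0.04 to 0.14 at 24 h). At 24 h it was at or below 0 without contralateral replicate 2 (-0.00) and without replicate 2 of all 9 groups (-0.04). Counts of members called are small, so 1 gene moves them. For none of the alternatives is the share of all genes called given here, so these counts describe the members only. Between ipsilateral and contralateral cortex at 6 h, 1 member was called lower, Psmd7, without the 2 libraries that stand apart (ipsilateral replicate 1 at 24 h, contralateral replicate 1 at 3 h). At 12 h, 1 instead of 2 was called higher with no filter, with abundant RNAs left out or with the replicate block fitted within each time, and leaving out a replicate gave 0 to 3. At 24 h, 0 instead of 1 was called higher with no filter, with abundant RNAs left out or with only the groups compared, 2 without the libraries apart, and 0 to 2 with a replicate left out. The cause was not tested.

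Between ipsilateral and sham cortex at 6 h, 1 member was called higher instead of 0 with only the groups compared, with the GC correction and replicate block, or without the libraries apart. For lower calls the count was 0 with no filter and 2 with only the groups compared or without the libraries apart, instead of 1, and 0 to 1 with a replicate left out. At 12 h, 1 was called higher instead of 0 with only the groups compared, the GC correction or without the libraries apart, and 2 with the GC correction and replicate block. At 24 h, the count higher was 2 with a filter of 1 CPM in 3 libraries, 1 with only the groups compared, 3 with the GC correction, 4 with it and the replicate block, and 6 without the libraries apart, instead of 0. It was 0 to 7 with a replicate left out, with 7 without replicate 1 of all 9 groups. The cause was not tested. Lower calls were 2 with the GC correction and with it and the replicate block, instead of 1, and 0 to 1 with a replicate left out. A plain replicate block moved no count by over 1.5 times. The largest shift of the median of all genes under a filter or scaling was 0.0402. Of the 46 members, 3 had a mean count under 100, which limits Psma8, Psme2b and Psmc3ip.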
